A study of Mus musculus with 24 samples.

Results

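Whether the retinal response to neonatal hyperoxia depended on gasdermin D (GSDMD) was examined per gene as a difference of differences, the change with oxygen in GSDMD-KO retinas minus the change with oxygen in WT retinas, on the log2 scale. GSDMD forms pores in the cell membrane after cleavage by inflammatory caspases and so executes pyroptosis, an inflammatory form of cell death. In the mouse model of oxygen-induced retinopathy, high oxygen stops growth of and prunes the immature retinal vessels, and return to room air leaves a hypoxic inner retina that makes vascular growth factors, activates Müller glia and microglia, and drives new vessels. An interaction above 0 means that the oxygen effect was higher in KO than in WT retinas, and an interaction below 0 that it was lower.

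All 12 retina libraries of the 24 libraries of the series were used, 3 in each of 4 groups. WT-RA and KO-RA mice stayed in room air. WT-O2 and KO-O2 mice breathed 75% oxygen from postnatal day 7 to day 12 and then recovered in room air, and retinas were collected on day 18. KO mice were homozygous for a CRISPR/Cas9 allele that lacks 38 bp of Gsdmd exon 5 in every cell, on a C57/B6 background, and the WT mice were their littermates from heterozygote crosses. The tissue was whole retina, so that changes in several cell types are summed in each value. Of 36595 genes in the table, 19173 passed a filter on low counts, and 30 lens genes (16 crystallins and 14 other lens fiber genes) were set apart, which left 19143. Libraries held 24863257 to 29093035 estimated counts (median 27827879). Nothing in the labels says whether the retinas of a group came from separate litters, so p-values measure only the spread between these samples. Levels are CPM, counts scaled to the library size with trimmed means, and a gene is called at a Benjamini-Hochberg adjusted p below 0.1 in the quasi-likelihood test of edgeR.

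Several libraries stood apart. Crystallins made up 4.70%, 12.6% and 7.98% of the counts in WT-RA 2, WT-RA 3 and KO-RA 3, against 0.0105% to 0.0711% in the other 9 retinas. Y-linked genes were present in all 3 retinas of both room-air groups and in 1 of 3 retinas of both oxygen groups, so sex and oxygen were mixed to the same extent in both genotypes. Rod genes held 6.63% to 8.03% of the counts in WT-RA, 7.67% to 8.30% in WT-O2, 7.18% to 8.03% in KO-RA and 6.52% to 7.065% in KO-O2. The rod shares of WT-O2 and KO-O2 thus did not overlap, and this difference was not tested.

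Gsdmd, the targeted gene, was measured at 4.08, 0.419 and 2.70 CPM in WT-RA, at 5.70, 2.90 and 3.85 CPM in WT-O2, at 0.980, 0.774 and 0.636 CPM in KO-RA and at 1.11, 1.44 and 2.95 CPM in KO-O2. The library labelled WT-RA 2 lay below every KO library, and the library labelled KO-O2 3 lay above 3 of the 6 WT libraries. By qRT-PCR, the paper found hardly any Gsdmd RNA in KO retinas. The deletion is short and the counts are of the whole gene, so these levels alone do not settle the genotype. The genotype of WT-RA 2 and KO-O2 3 was not tested, and their labels were kept. The Gsdmd interaction was 0.41 (SE 0.89, adjusted p = 0.911 in edgeR).

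In the whole transcriptome, 1 gene of 19143 (0.00522%) was called for the interaction, Rbm3, which encodes a cold-inducible RNA-binding protein. At an unadjusted p below 0.05 there were 2035 genes (10.6%), of which 1010 (5.28%) had an interaction above 0 and 1025 (5.35%) below 0. The threshold of 0.05 applies to both directions together. The count of 1 became 0 without WT-RA 3, WT-O2 1, WT-O2 2, WT-O2 3, KO-RA 3 or KO-O2 2, 2 without KO-RA 1, 5 without KO-RA 2 and 340 (184 above 0 and 156 below) without KO-O2 1. DESeq2's likelihood ratio test on the same counts called 534 genes (2.79%), of which 286 were above 0 and 248 below. Of the 340 genes called without KO-O2 1, 221 were among those 534.

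In WT retinas, 597 genes (3.12%) rose and 392 (2.05%) fell with oxygen, and in KO retinas 840 (4.39%) rose and 660 (3.45%) fell. Between genotypes in room air no gene was higher in KO and 1 gene (0.00522%) was lower, mt-Nd3, named after its value was seen. At an unadjusted p below 0.05 there were 2427 room-air genes, and DESeq2 called 758. After oxygen, 109 genes (0.569%) were higher in KO-O2 than in WT-O2 and 135 (0.705%) were lower. These 244 genes became 134 without WT-RA 2, 42, 41 and 30 without WT-O2 1, 2 and 3, 95 without KO-RA 2, 124 without KO-RA 3, 34 without KO-O2 2 and 12 without KO-O2 3. Without WT-RA 2 and KO-O2 3 together, the count was 3. The 989 genes of the WT arm became 380 and 361 without WT-RA 1 and 2, and 401, 366 and 433 without WT-O2 1, 2 and 3. The 1500 genes of the KO arm became 558, 935 and 745 without KO-RA 1, 2 and 3, and 374 and 853 without KO-O2 2 and 3. Without the 3 lens-rich retinas the order of the arms turned, with 871 genes in WT and 767 in KO, and at a fold of at least 2 they held 390 and 420.

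**Figure D1:**
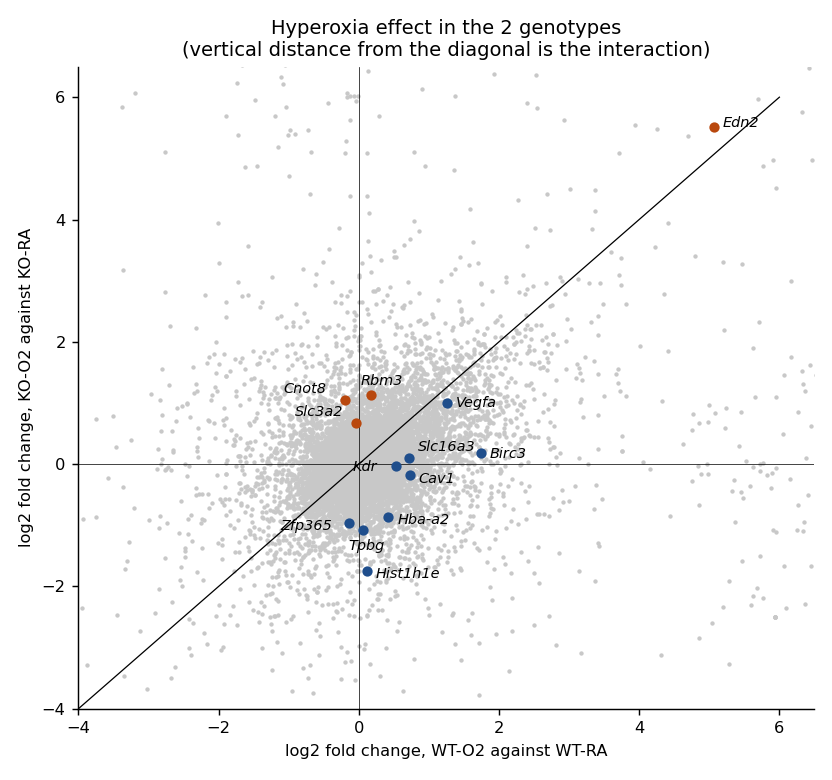
Oxygen effect per gene in the 2 genotypes, with the log2 fold change of WT-O2 against WT-RA on the horizontal axis and of KO-O2 against KO-RA on the vertical axis. Grey points are the 19143 tested genes (385 lie outside the axes), the diagonal marks equal effects, and the named genes above it (Rbm3, Slc3a2, Cnot8, Edn2) have interactions above 0 and those under it below 0.

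Rbm3 (ENSMUSG00000031167) was at 116, 109 and 113 CPM in WT-RA, at 122, 128 and 131 CPM in WT-O2, at 108, 119.5 and 115 CPM in KO-RA, and at 261, 248 and 238 CPM in KO-O2. The 3 KO-O2 retinas lay above the other 9, which spanned a narrow range. All 3 KO-O2 retinas lay above the other 9 for 544 of 19143 genes (2.84%). The oxygen effect was 1.12 (SE 0.07, adjusted p = 0.000121 in edgeR) in KO and 0.18 (SE 0.07, adjusted p = 0.239) in WT, and the interaction was 0.95 (SE 0.10, adjusted p = 0.0252). Means were 127 ± 4.96 CPM in WT-O2 and 249 ± 11.3 CPM in KO-O2 (SD, n = 3 each). Leaving out each library in turn kept the interaction between 0.91 and 0.98, and the adjusted p in edgeR exceeded 0.1 without WT-RA 3 (0.126), WT-O2 1 (0.163), WT-O2 2 (0.133), WT-O2 3 (0.133), KO-RA 3 (0.153) or KO-O2 2 (0.118). It was 0.138 with the lens level as a covariate, 0.248 without the 3 lens-rich retinas and 0.273 without WT-RA 2 and KO-O2 3 together, with interactions of 0.96, 1.00 and 1.00. The fit without the lens-rich retinas holds 1 WT-RA library, which is assumed to vary like the other groups.

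Cirbp encodes the close relative of Rbm3 that is likewise induced by mild cold. Its levels were 344, 319 and 335 CPM in WT-RA, 351, 365 and 375 CPM in WT-O2, 285, 329 and 250.1 CPM in KO-RA, and 458, 398 and 374 CPM in KO-O2. The KO-O2 retina with the lowest level lay just under the highest WT-O2 retina, and the KO-RA retinas spread more widely than the WT groups. Cirbp rose in KO retinas (0.51, SE 0.11, adjusted p = 0.0337 in edgeR) and its interaction was not called (0.38, SE 0.16, adjusted p = 0.434). The Cirbp promoter is shown because a mild-cold element has been described in this gene family, and the element TCCCCGCC is in capitals. The window is the 250 bases upstream of the transcript start, on the plus strand at chr10:80167589-80167838 of GRCm38.p6, taken from RefSeq.
Cirbp promoter: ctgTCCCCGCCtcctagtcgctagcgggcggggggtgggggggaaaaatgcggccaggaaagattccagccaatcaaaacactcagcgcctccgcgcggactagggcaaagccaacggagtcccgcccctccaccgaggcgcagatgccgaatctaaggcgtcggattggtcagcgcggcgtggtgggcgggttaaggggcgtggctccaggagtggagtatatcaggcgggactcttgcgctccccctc
The element starts 247 bases upstream of the start site. On either strand, 1525 of 32851 promoter windows of this length (4.64%) hold the same 8 letters, so a match describes the sequence and does not mark a site in use.

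The 10 genes of smallest p in each direction are given next. Of the 20, 14 have a promoter entry in the RefSeq table and Rbm3 has none. Apart from Rbm3, none of the other 19 was called in edgeR (adjusted p from 0.123 to 0.185), while DESeq2 and the edgeR fit without KO-O2 1 called all 19. Of the 12 edgeR fits that each left out 1 library, mt-Nd3 was called in 3, and Smpd2 and Tspyl2 in 2 each. The remaining genes were called only in the fit without KO-O2 1. Among the 10 genes above 0, the 3 KO-O2 retinas lay above the other 9 for 7 genes, a pattern found in 544 of 19143 genes (2.84%). Among the 10 below 0, the 3 KO-O2 retinas lay below the other 9 for 6 genes, a pattern found in 463 of 19143 genes (2.42%). The 3 WT-O2 retinas lay above the other 9 for 3 genes, and the share over all genes was not counted. The genes were picked by their interaction p in these same retinas, so such patterns follow in part from the choice and only describe them.

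**Figure D2:**
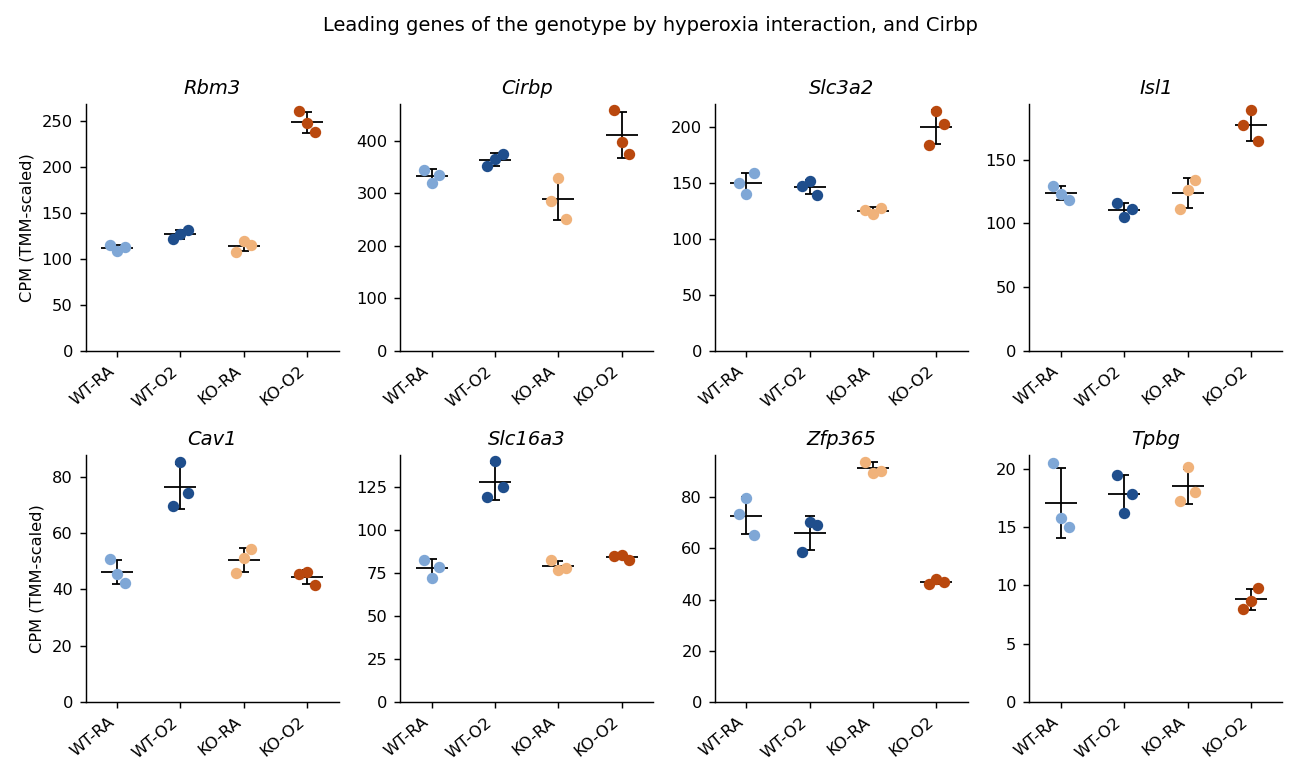
CPM in each retina for 7 genes of the interaction and for Cirbp, with 1 panel per gene and the 4 groups on the horizontal axis. Points are retinas, and bars give the group mean and SD (n = 3). KO-O2 stands apart for Rbm3, Slc3a2 and Isl1 (higher) and for Zfp365 and Tpbg (lower), and WT-O2 stands apart for Cav1 and Slc16a3 (higher).

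Slc3a2 encodes the heavy chain that brings amino acid transporters such as LAT1 to the cell surface. It was at 150.4, 140.1 and 159 CPM in WT-RA, at 148, 152 and 139 CPM in WT-O2, at 126, 122 and 128 CPM in KO-RA, and at 184, 214 and 203 CPM in KO-O2. KO-RA was the lowest group and KO-O2 the highest, with no overlap with either WT group. The interaction was 0.71 (SE 0.11, adjusted p = 0.123 in edgeR), from a rise of 0.67 in KO and a value of -0.04 in WT. Cnot8, a deadenylase subunit of the CCR4-NOT complex that shortens mRNA tails, was at 38.1 to 55.9 CPM in the other 9 retinas and at 82.3, 123 and 101 CPM in KO-O2 (interaction 1.24, SE 0.22). Ipo9, an importin that carries proteins into the nucleus, was at 108 to 131 CPM in the other 9 and at 181, 219 and 213 CPM in KO-O2 (interaction 0.87, SE 0.14). Smpd2, a neutral sphingomyelinase, was at 114, 133.5 and 124 CPM in KO-O2 and at 65.9, 81.4 and 74.0 CPM in KO-RA, and its interaction was 0.90 (SE 0.13). Hira, a chaperone that deposits histone H3.3, and Tspyl2, a nuclear protein of the nucleosome assembly family, had interactions of 0.81 (SE 0.14) and 0.92 (SE 0.15). In these 6 genes KO rose with oxygen, while none of the WT changes was called. For Slc3a2, Smpd2 and Hira, the KO-RA retinas also lay below the other 9. A room-air difference between genotypes, not called, thus enters their interactions as well.

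Rpusd1 and Pygm reached the same sign through the WT arm as well. Rpusd1, a pseudouridine synthase-domain gene, fell in WT (-0.71) and rose in KO (0.37), with an interaction of 1.08 (SE 0.16). Pygm, the muscle form of glycogen phosphorylase, was at 44.7, 49.3 and 48.4 CPM in WT-RA and 34.2, 37.6 and 33.0 CPM in WT-O2, against 32.0, 32.4 and 35.6 CPM in KO-RA and 39.0, 42.1 and 42.9 CPM in KO-O2. It fell in WT (-0.44) and rose in KO (0.31), so that the room-air groups differed more than the oxygen groups. The interaction of Pygm was 0.75 (SE 0.12), and a second identifier carries the same counts in all 12 retinas.

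The mitochondrial gene mt-Nd3, a subunit of respiratory complex I, had a large but uncertain interaction of 3.94 (SE 0.54, adjusted p = 0.123 in edgeR). It was at 6292, 6482 and 6790 CPM in WT-RA, at 4644, 4490 and 5407 CPM in WT-O2, at 162, 653 and 567 CPM in KO-RA, and at 4745, 5467 and 5525 CPM in KO-O2. The 3 low KO-RA retinas carried 2658, 4923 and 5040 CPM in Gm28438, a near-identical copy, which was at 2256, 320 and 51.5 CPM in WT-RA and at 0 to 1.12 CPM in all 6 oxygen retinas. WT-RA 1 thus carried nearly as much of the copy as KO-RA 1 while its mt-Nd3 level stayed high. With both identifiers summed, the interaction was 0.78 (SE 0.31, adjusted p = 0.412 in edgeR).

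Of the genes below 0, 6 were lowest in KO-O2. Zfp365, a gene linked to replication stress and neurite growth, was at 73.4, 79.7 and 65.3 CPM in WT-RA, at 58.5, 70.5 and 69.3 CPM in WT-O2, at 93.9, 89.6 and 90.2 CPM in KO-RA, and at 46.1, 47.9 and 46.9 CPM in KO-O2. KO-RA was the highest group and KO-O2 the lowest, and each was tight (interaction -0.82, SE 0.13). Tpbg, an inhibitor of Wnt signaling also known as 5T4, was at 15.0 to 20.5 CPM in the other 9 retinas and at 7.98, 8.68 and 9.74 CPM in KO-O2 (interaction -1.13, SE 0.20). Hist1h1e, a linker histone gene, was at 3.84 to 4.99 CPM in the other 9 and at 1.70, 0.889 and 1.36 CPM in KO-O2 (interaction -1.85, SE 0.32). Gas7, a cytoskeletal protein of neurons, was at 53.2, 56.4 and 52.6 CPM in KO-O2 and at 79.1 to 94.4 CPM elsewhere (interaction -0.54, SE 0.11). The importin-family gene Ranbp6 (-0.62, SE 0.12) and the orphan receptor gene Gpr152 (-0.88, SE 0.18) were also lowest in KO-O2, and Gpr152 shares its counts with a second identifier. Each of these 6 genes fell with oxygen in KO, and none was called in WT. For Zfp365 and Ranbp6, the KO-RA retinas also lay above the other 9, a room-air difference that was not called.

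Cav1, Slc16a3 and Cetn4 differed through the WT arm. Cav1, which encodes caveolin-1, the coat protein of caveolae that are abundant in endothelium and Müller glia, was at 50.8, 45.3 and 42.4 CPM in WT-RA, at 69.7, 85.3 and 74.2 CPM in WT-O2, at 45.7, 51.2 and 54.3 CPM in KO-RA, and at 45.4, 46.0 and 41.6 CPM in KO-O2. The WT-O2 retinas lay above the other 9, whose groups overlapped. Cav1 rose in WT (0.73, SE 0.11, adjusted p = 0.0060 in edgeR), was -0.19 (SE 0.11) in KO, and had an interaction of -0.91 (SE 0.15, adjusted p = 0.123). Cetn4, a centrin of centrioles and cilia, was at 20.1, 20.3 and 21.0 CPM in WT-O2 and at 11.7 to 15.7 CPM in the other 9 (interaction -0.76, SE 0.15). Mpp5, the polarity scaffold PALS1 of the photoreceptor and Müller cell junctions, rose in WT (0.48) and fell in KO (-0.44), with an interaction of -0.92 (SE 0.18) and overlapping groups.

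Slc16a3 encodes the monocarboxylate transporter MCT4, which exports lactate and is a known target of hypoxia-inducible factor. It was at 82.9, 72.1 and 78.5 CPM in WT-RA, at 119.6, 140.2 and 125 CPM in WT-O2, at 82.6, 77.2 and 77.8 CPM in KO-RA, and at 85.1, 85.9 and 82.9 CPM in KO-O2. Only WT-O2 stood apart. Slc16a3 rose in WT (0.72, SE 0.08, adjusted p = 0.0018 in edgeR), was 0.10 (SE 0.08) in KO, and had an interaction of -0.63 (SE 0.12, adjusted p = 0.159). Its promoter is shown because the core of the hypoxia response element, ACGTG (in capitals), lies in it 27 and 14 bases upstream of the start. The window is the 250 upstream bases on the plus strand at chr11:120948817-120949066 of GRCm38.p6, from RefSeq.
Slc16a3 promoter: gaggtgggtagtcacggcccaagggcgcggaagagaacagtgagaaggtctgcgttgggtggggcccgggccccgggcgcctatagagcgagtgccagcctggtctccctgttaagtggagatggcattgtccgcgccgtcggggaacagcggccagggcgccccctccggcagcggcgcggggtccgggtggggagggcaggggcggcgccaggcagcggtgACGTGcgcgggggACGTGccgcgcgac
Searched on both strands, ACGTG occurs in 5444 of 32851 such windows (16.6%), and a match is a description only. Of 23 tested hypoxia and glycolysis genes, the median interaction was -0.10. At an unadjusted p below 0.05, 1 was above 0 (Ndrg1, 0.30) and 2 below 0 (Slc16a3 and the glycolytic regulator Pfkfb3, -0.51). With oxygen, 4 members rose in WT and 2 in KO, against 3.12% and 4.39% of all genes.

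Gene lists for cell types and pathways are described by counts and medians beside the median of -0.0040 over all 19143 genes and beside the 5.28% above and 5.35% below 0 at an unadjusted p below 0.05. Whatever the p, 9494 of the 19143 genes had an interaction above 0. Members that rose or fell with oxygen were called at an adjusted p below 0.1 in edgeR. Over all genes, 3.12% rose and 2.05% fell in WT, and 4.39% rose and 3.45% fell in KO. None of the interactions that follow was called in edgeR. In whole retina, fewer cells of a type and less RNA per cell cannot be told apart.

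**Figure D3:**
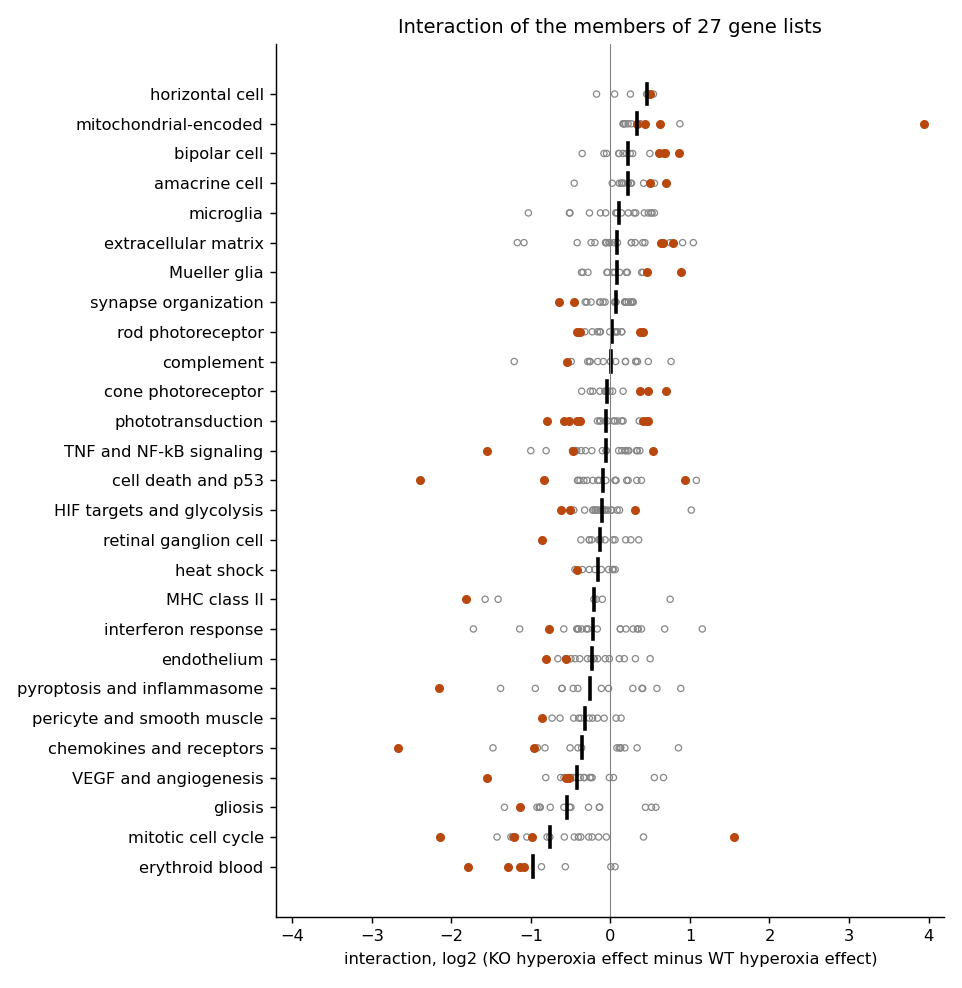
Interaction (log2) of each tested member of 27 gene lists, 1 list per row, ordered by the median (black bar). Filled points have an unadjusted p below 0.05 and open points do not, and medians run from -0.98 for erythroid genes to 0.46 for horizontal cell genes.

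Angiogenic and vessel genes mostly had interactions below 0. Of 20 VEGF and angiogenesis genes, 10 rose in WT and 6 in KO, 3 of 20 interactions were above 0, and the median was -0.42. Vegfa, the hypoxia-driven growth factor of endothelium, was at 256, 234 and 246 CPM in WT-RA, at 595, 613 and 548 CPM in WT-O2, at 183, 259 and 222 CPM in KO-RA, and at 477, 451 and 397 CPM in KO-O2. Both oxygen groups lay above both room-air groups, and WT-O2 above KO-O2. The rise was 1.25 (SE 0.13) in WT and 1.00 (SE 0.13) in KO, and the interaction of -0.26 (SE 0.18, adjusted p = 0.631 in edgeR) was within the spread. Pgf, placental growth factor and a ligand of the VEGF receptor Flt1, was at 7.43, 7.95 and 7.05 CPM in WT-O2 and at 0.642 to 2.54 CPM in the other 9 retinas, with an interaction of -1.56 (SE 0.50, adjusted p = 0.294). Nrp1, a VEGF co-receptor, had an interaction of -0.52 (SE 0.20).

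Kdr, the main VEGF receptor of endothelium, was at 38.2, 34.5 and 35.6 CPM in WT-RA, at 49.1, 52.1 and 54.6 CPM in WT-O2, at 52.2, 40.5 and 43.0 CPM in KO-RA, and at 43.8, 46.6 and 42.5 CPM in KO-O2. It rose in WT (0.52, SE 0.10), was -0.03 (SE 0.10) in KO, and had an interaction of -0.56 (SE 0.14, adjusted p = 0.233 in edgeR). KO-RA 1 was as high as WT-O2, and the remaining KO retinas lay between the WT groups. Of 18 endothelial markers, 12 rose in WT and 12 in KO, none fell, and 4 interactions were above 0 (median -0.23, with 2 below 0 at an unadjusted p below 0.05). With the offset for base composition the median was -0.40, with 3 below 0 at that p. Sox18, a transcription factor of endothelium, rose in both genotypes (1.49 and 0.67), with an interaction of -0.81 (SE 0.29). Of 12 pericyte and smooth muscle markers, 8 rose in WT and 5 in KO, with 2 interactions above 0 (median -0.32). Rgs5, a pericyte marker, was at 60.2, 50.6 and 67.1 CPM in WT-RA, at 193, 167 and 146 CPM in WT-O2, at 73.9, 76.3 and 77.0 CPM in KO-RA, and at 154, 110.2 and 90.8 CPM in KO-O2. All oxygen retinas were above all room-air retinas for Rgs5, 1 KO-O2 retina reached the WT-O2 range, and the interaction was -0.86 (SE 0.25, adjusted p = 0.262). It was among the 156 genes called below 0 without KO-O2 1.

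Erythroid genes are given beside the vessel genes, since blood stays in the vessels of a dissected retina. Hba-a2, an alpha globin gene, was at 395, 361 and 288 CPM in WT-RA, at 366, 608 and 426 CPM in WT-O2, at 200.1, 221 and 351 CPM in KO-RA, and at 153, 146 and 125 CPM in KO-O2. KO-O2 was the lowest group and did not overlap any other, and its level was below WT-O2 by edgeR (-1.72, SE 0.24, adjusted p = 0.0211). The interactions of the 4 globin genes Hba-a1, Hba-a2, Hbb-bs and Hbb-bt were -1.13, -1.29, -1.08 and -1.80, all with adjusted p of 0.233 to 0.290 in edgeR, and all 4 were called by DESeq2. The 8 tested erythroid genes had a median interaction of -0.98 with 2 above 0. Their summed share of counts was 0.109% to 0.177% in WT-O2, 0.0440% to 0.0506% in KO-O2, 0.0649% to 0.102% in WT-RA and 0.0623% to 0.0836% in KO-RA. The part of blood in the vessel-gene values was not tested.

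**Figure D4:**
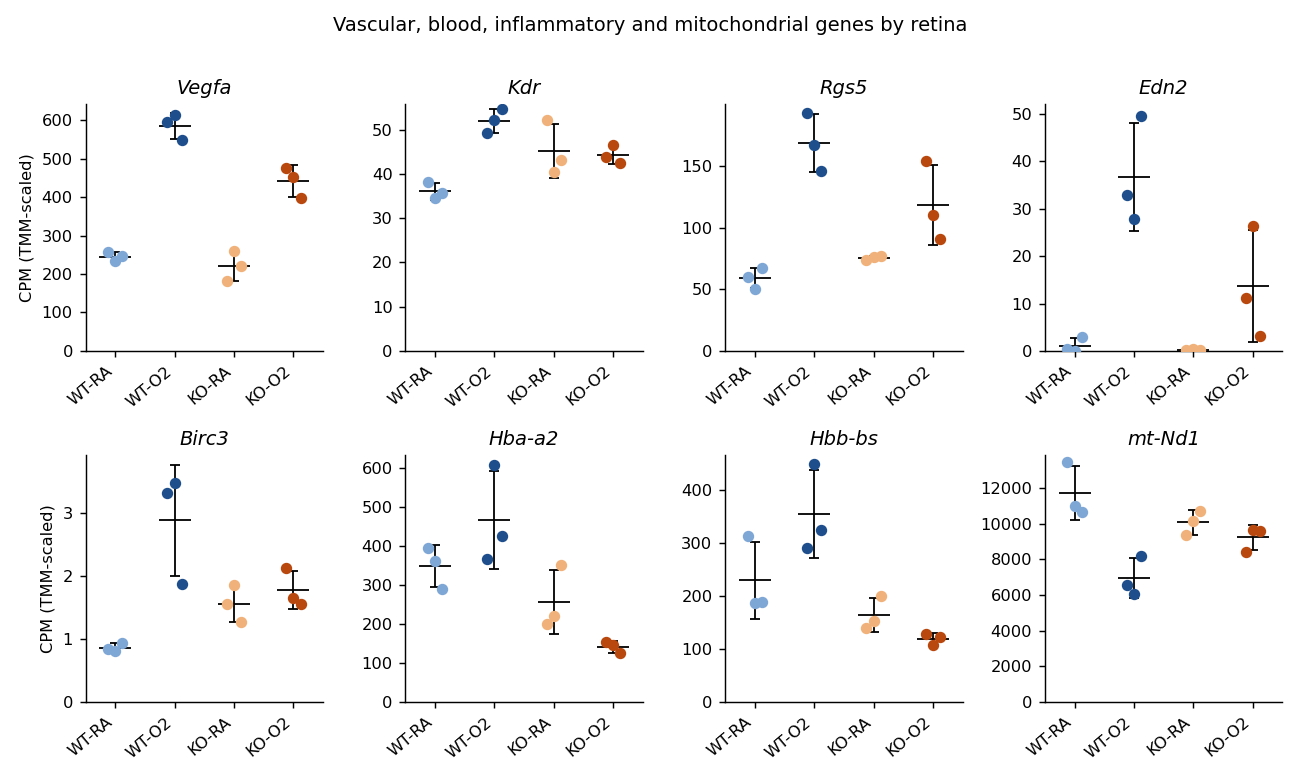
CPM in each retina for Vegfa, Kdr, Rgs5, Edn2, Birc3, Hba-a2, Hbb-bs and mt-Nd1, with points for retinas and bars for the group mean and SD (n = 3). WT-O2 is the highest group for the first 5 genes and both globin genes, KO-O2 is the lowest group for the globin genes, and WT-O2 is the lowest group for mt-Nd1.

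Of 16 gliosis genes, 10 rose in WT and 10 in KO, the median oxygen effect was 2.18 in WT and 1.38 in KO, and 3 of 16 interactions were above 0 (median -0.55). Gfap, the intermediate filament of reactive Müller glia and astrocytes, was at 12.2, 6.52 and 28.9 CPM in WT-RA, at 82.0, 116 and 103 CPM in WT-O2, at 8.62, 12.8 and 9.73 CPM in KO-RA, and at 40.2, 67.7 and 23.9 CPM in KO-O2. WT-O2 lay above KO-O2, and 1 KO-O2 retina was below a WT-RA retina. The interaction was -0.58 (SE 0.71, adjusted p = 0.809 in edgeR). Nes, an intermediate filament of progenitors and activated Müller glia, was at 10.9, 16.3 and 9.84 CPM in WT-O2, at 6.70, 8.24 and 5.05 CPM in KO-O2 and at 2.40 to 3.70 CPM in room air. It rose by 2.19 in WT and by 1.05 in KO, with an interaction of -1.14 (SE 0.34, adjusted p = 0.281). Müller glia identity genes had a median of 0.08, with Dkk3 (0.46) and Car14 (0.89) above 0 at an unadjusted p below 0.05.

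Immune lists differed in their medians. Of 15 tested chemokine and receptor genes, 7 had an interaction above 0 (median -0.36), and Ccr2, a receptor of monocytes at or below 0.817 CPM in every retina, was at -2.67 (SE 0.96) and Ackr3, a scavenging chemokine receptor, at -0.96. Of 7 MHC class II genes, 1 was above 0 (median -0.21), and H2-Eb1 was at -1.81 (SE 0.77, adjusted p = 0.439 in edgeR). Of 18 microglia markers, 8 rose in WT and 9 in KO, 12 interactions were above 0 (median 0.11), and none had an unadjusted p below 0.05. Of 17 complement genes, 6 rose in each genotype and the median was 0.0011. The 14 tested pyroptosis and inflammasome genes, the pathway in which GSDMD acts, had a median of -0.26, with 1 rise in WT and 2 in KO. Of these, Casp12, an inflammatory caspase family member at or below 1.42 CPM in every retina, had an interaction of -2.15 (SE 0.83, adjusted p = 0.385 in edgeR). Among 23 TNF and NF-kB genes the median was -0.05, 7 rose in WT and 3 rose and 1 fell in KO. Nfkbia, the inhibitor of NF-kB, was at 48.6, 49.8 and 49.3 CPM in WT-RA, at 43.6, 42.9 and 38.2 CPM in WT-O2, at 44.2, 45.0 and 46.6 CPM in KO-RA, and at 49.5, 55.2 and 61.4 CPM in KO-O2. WT-O2 was the lowest group, KO-O2 overlapped WT-RA, and the interaction was 0.54 (SE 0.13, adjusted p = 0.213). Tnfaip3, the A20 feedback inhibitor of the same pathway, had an interaction of -0.47. The 20 interferon genes had a median of -0.22, or -0.11 after the correction for base composition.

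The 6 genes measured in retina by qRT-PCR were chosen on these samples, so they are no independent evidence of a direction, and 1 of them (Birc3) had an unadjusted p below 0.05. Birc3, an inhibitor of apoptosis induced by NF-kB, was at 0.840, 0.801 and 0.942 CPM in WT-RA, at 3.31, 3.46 and 1.87 CPM in WT-O2, at 1.55, 1.85 and 1.27 CPM in KO-RA, and at 2.12, 1.64 and 1.56 CPM in KO-O2. Birc3 rose in WT (1.74, SE 0.30), was 0.18 (SE 0.29) in KO, and had an interaction of -1.55 (SE 0.42, adjusted p = 0.237 in edgeR). The KO-RA level was above WT-RA in every retina, and the lowest WT-O2 retina was within the KO-O2 range. Edn2, endothelin 2 made by stressed photoreceptors, was at 0.440, 0 and 2.91 CPM in WT-RA, at 32.9, 27.8 and 49.5 CPM in WT-O2, at 0.135, 0.505 and 0.238 CPM in KO-RA, and at 11.3, 26.4 and 3.15 CPM in KO-O2. WT-O2 lay above KO-O2 in every retina, yet the interaction on the log2 scale was 0.44 (SE 1.62, adjusted p = 0.957), and its sign turned without WT-RA 3 (-1.87) and without KO-O2 2 (-0.47). Stat3, a transducer of cytokine signals, rose in both genotypes (1.20 and 0.92, interaction -0.28, SE 0.34), as did Pdgfrb, the PDGF receptor of pericytes (0.61 and 0.68, interaction 0.07, SE 0.22). Birc5, the mitotic inhibitor of apoptosis survivin, rose in WT (1.82) and was 0.77 (SE 0.40) in KO, with an interaction of -1.05 (SE 0.57, adjusted p = 0.543). Nlrc3, a negative regulator of innate signaling, was called in neither genotype (interaction -0.11, SE 0.35).

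Bipolar cell genes had the opposite sign to vessel genes. Of 14 bipolar markers, 11 had an interaction above 0 (median 0.23), 4 with an unadjusted p below 0.05 and none below 0, while with the offset for base composition the median was 0.14 and 1 member was below 0 at that p. Of the 14, 5 fell in WT and 3 fell and 2 rose in KO. Isl1, a transcription factor of ON bipolar, amacrine and ganglion cells, was at 129.5, 123 and 119 CPM in WT-RA, at 116, 105 and 111 CPM in WT-O2, at 111, 126 and 134 CPM in KO-RA, and at 177, 189 and 165 CPM in KO-O2. KO-O2 lay above the other 9 retinas, and Isl1 was higher in KO-O2 than in WT-O2 (0.68, SE 0.09, adjusted p = 0.0211 in edgeR), with an interaction of 0.67 (SE 0.13, adjusted p = 0.159). Trpm1, the cation channel of ON bipolar dendrites, was at 257, 269.9 and 275 CPM in KO-O2 and at 139 to 200.4 CPM in the other 9 (interaction 0.69, SE 0.19). Vsx1, of cone bipolar cells, fell in WT (-0.77) and had an interaction of 0.61 (SE 0.22). Isl1 was among the 184 genes called above 0 without KO-O2 1, and DESeq2 called Isl1 and Trpm1.

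Of 14 amacrine markers 13 had an interaction above 0 (median 0.22), as did 6 of 7 horizontal cell markers (median 0.46, or 0.33 after the correction for base composition), with Prox1 at 0.50 (SE 0.16) and Tfap2b at 0.70 (SE 0.31), both transcription factors of amacrine and horizontal cells. Tfap2b was at 69.8 CPM in KO-O2 1 and at 145 and 155 CPM in the other KO-O2 retinas, so that group spanned the whole range of values. The medians were 0.02 for 16 rod markers, -0.04 for 14 cone markers and -0.13 for 14 ganglion cell markers. Outside the cell type lists, 18 of 19 ribosomal protein genes were above 0 (median 0.27, or 0.17 after the correction for base composition). A median near those of the bipolar and amacrine lists was thus not particular to a cell type. Opn1mw, the medium-wavelength cone opsin, was at 333, 367 and 347 CPM in WT-RA, at 294, 252 and 262 CPM in WT-O2, at 214, 228 and 269.6 CPM in KO-RA, and at 255, 333 and 302 CPM in KO-O2, with an interaction of 0.70 (SE 0.17, adjusted p = 0.218 in edgeR). WT-RA lay above WT-O2 and KO-RA, and the highest KO-O2 retina reached the lowest WT-RA level. The groups other than WT-RA overlapped each other, and neither oxygen effect was called (-0.37 in WT and 0.33 in KO). Rdh11, a retinol dehydrogenase of the visual cycle, was at 25.8, 22.7 and 25.6 CPM in KO-O2 and at 34.6 to 46.7 CPM in the other 9 retinas, with an interaction of -0.57 (SE 0.14, adjusted p = 0.220).

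Mitochondrial-encoded transcripts, which code for respiratory chain subunits, all had interactions above 0 (13 of 13, median 0.34, or 0.48 after the correction for base composition). In WT 8 of 13 fell with oxygen, and in KO 3 fell and 1, mt-Nd3, rose. The mt-Nd3 values leave out its copy Gm28438. With both summed, KO-RA was at 2819, 5576 and 5606 CPM and KO-O2 at 4745, 5467 and 5525 CPM, so these groups overlapped. mt-Nd1, a complex I subunit, was at 13448, 10993 and 10679 CPM in WT-RA, at 6555, 6045 and 8209 CPM in WT-O2, at 9363, 10140 and 10727 CPM in KO-RA, and at 8437, 9657 and 9589 CPM in KO-O2. WT-O2 was the lowest group and did not overlap KO-O2, and the interaction was 0.63 (SE 0.19, adjusted p = 0.285 in edgeR). Mitochondrial-encoded transcripts held 12.5% to 14.7% of the counts in WT-RA, 9.75% to 11.3% in WT-O2, 12.0% to 13.7% in KO-RA and 11.2% to 12.3% in KO-O2.

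Mitotic genes were mostly below 0. Of 21 mitotic genes, 5 rose in WT and 2 in KO, and 2 interactions were above 0 (median -0.76). Cdk1, the kinase that starts mitosis, was at 0.343 to 1.89 CPM in WT-RA, at 7.00, 6.99 and 10.0 CPM in WT-O2, at 0.575 to 2.78 CPM in KO-RA, and at 4.69, 2.43 and 1.90 CPM in KO-O2. Only WT-O2 stood apart, and the interaction was -2.14 (SE 0.93, adjusted p = 0.448 in edgeR). Bub1b, a spindle checkpoint kinase, went the other way (1.55, SE 0.37, adjusted p = 0.213). Atf3, a stress-induced transcription factor, rose in WT (1.59) and was 0.50 (SE 0.24) in KO, with an interaction of -1.10 (SE 0.33). The endoplasmic reticulum chaperones Hspa5 and Hsp90b1 fell in KO (-0.45 and -0.37), and their interactions were -0.44 (SE 0.17) and -0.40 (SE 0.14). Egr1, an immediate early gene of neurons, was at 22.8, 30.7 and 34.1 CPM in WT-RA, at 28.4, 50.6 and 22.2 CPM in WT-O2, at 17.9, 9.35 and 9.97 CPM in KO-RA, and at 44.8, 142 and 77.1 CPM in KO-O2. The KO groups did not overlap and the WT groups did, and the interaction was 2.62 (SE 0.63, adjusted p = 0.221). Ciart, a circadian repressor, had an interaction of 0.98 (SE 0.27). The time of day of collection is not given in the sources used here, and its part in these values was not tested.

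The interaction varied with base composition. Among genes above a mean log2 CPM of 3 split into 5 bins by transcript GC content, the median interaction was -0.14, -0.05, 0.02, 0.10 and 0.19 from the lowest to the highest bin. Genes with an unadjusted p below 0.05 had a median GC content of 54.0% above 0 and 45.3% below 0, against 49.5% over all tested genes. Per library, the deviation of the highest from the lowest bin was 0.26, 0.24 and 0.04 in WT-RA, 0.0007 to 0.01 in WT-O2, -0.13, -0.13 and -0.27 in KO-RA, and -0.26, 0.14 and 0.07 in KO-O2. KO-O2 1 thus stood on the side of KO-RA and apart from the other KO-O2 retinas. The part of base composition in the 340 calls made without KO-O2 1 was not tested. With an offset for GC content, 3 genes were called, Rbm3 (1.10, SE 0.10, adjusted p = 0.0051 in edgeR), mt-Nd3 (4.09, adjusted p = 0.098) and Rpusd1 (0.88, adjusted p = 0.098). At an unadjusted p below 0.05 there were then 819 genes above 0 (4.28%) and 1056 below (5.52%). Among leading genes not called with the offset, the interaction was then 0.78 for Smpd2, 0.58 for Slc3a2, 0.88 for Ipo9, -0.80 for Zfp365, -0.82 for Cav1 and -0.82 for Slc16a3.

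**Figure D5:**
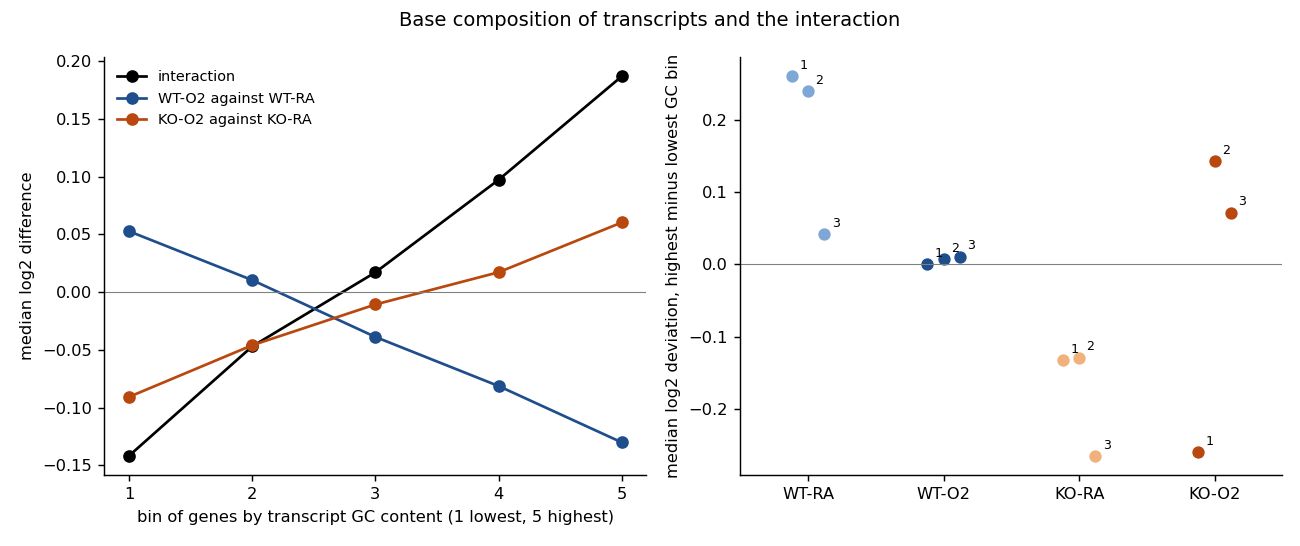
Left, the median log2 difference in each of 5 bins of genes by transcript GC content for the interaction and both oxygen effects. Right, the median deviation of the highest minus the lowest GC bin in each retina, numbered by replicate, in log2 units, where KO-O2 1 (-0.26) lies with KO-RA and away from KO-O2 2 and 3.

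The lens genes set apart had large and imprecise interactions. All 16 crystallins were above 0 (2.40 to 6.76), and none was called. Cryaa, the alpha A crystallin, was at 18.2, 6242 and 21286 CPM in WT-RA, at 0.693, 1.50 and 1.63 CPM in WT-O2, at 12.7, 0.673 and 8315 CPM in KO-RA, and at 0.451, 0.889 and 117 CPM in KO-O2. The high values were those of the 3 lens-rich retinas, and the interaction was 6.66 (SE 4.43, adjusted p = 0.627 in edgeR).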

How the data were processed

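The authors quantified 150 bp paired-end reads from whole retinas (RNA integrity number above 7) with kallisto, after FastQC, and deposited estimated counts per gene for 12 retinas. Versions are not given in the sources used here, and the labels and the study's methods name different genome builds, so no coordinate was taken from the counts. Estimated counts were rounded to whole numbers. In edgeR 4.0.16 (R 4.3.3), genes were filtered with filterByExpr and scaled by TMM, and the robust quasi-likelihood F-test was run with the 4 groups as 1 factor. The interaction and the simple effects are contrasts of that fit, with Benjamini-Hochberg adjustment over all tested genes and calls at 0.1. SE is the log2 value divided by the root of F. Of 36595 identifiers, 35968 had a symbol, and 218 tested identifiers share their counts with another. GC content came from reference transcripts (98.5% of tested genes). Alternatives used DESeq2 1.42.0, limma 3.58.1, other filters and scalings, covariates and left-out libraries, and the code was tested on simulated data. The 20 leading genes are the 10 of smallest p in each direction outside the lens lists with a mean of at least 1 CPM and a named gene model, and other named genes are the up to 3 members of smallest p per list, the targeted gene and the genes measured by qRT-PCR. Vegfa, Gfap, Cirbp, Vsx1, Hbb-bt and Cdk1 were added after their values were seen. The genes, the lists and the comparison itself were chosen with earlier results of these data known. Some genes that this rule selects are not reported here.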

Additional observations from a re-analysis of the deposited data

Results flagged for a closer look

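Rbm3 is given here because its oxygen effect differed between the genotypes by a test of the difference itself, with an interaction of 0.95 on the log2 scale (adjusted p = 0.0252 in edgeR's quasi-likelihood test), from 1.12 in GSDMD-KO and 0.18 in WT. All 3 KO-O2 retinas lay above the other 9, as they did for 544 of 19143 genes (2.84%). With each library left out in turn, the adjusted p of Rbm3 in edgeR ran from 0.0202 to 0.163. The gene was called in 6 of those 12 fits. With the lens level as a covariate it was not called (adjusted p = 0.138 in edgeR).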

How the results depend on the processing

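The interaction count of 1 was also 1 under RLE scaling, no low-count filter, a minimum of 1 CPM, limma voom, lens genes removed before scaling, Y-linked expression as a covariate and identical identifiers kept once. It was 558 by DESeq2's Wald test, 534 by its likelihood ratio test, 0 with the lens level as a covariate (2143 genes at an unadjusted p below 0.05) and 0 to 340 with each library left out. Among alternatives chosen after seeing the data, it was 3 with the GC offset, and 0 without the 3 lens-rich retinas, without WT-RA 2 and KO-O2 3, or at a fold of at least 2 (2573, 1543 and 2035 genes at an unadjusted p below 0.05). The WT oxygen effect gave 989 genes, 1889 by DESeq2, 871 without lens-rich retinas, 307 without that pair, 390 at the fold and 361 to 1278 with each library left out. The KO oxygen effect gave 1500, 2551 by DESeq2, 767 without lens-rich retinas, 705 without the pair, 420 at the fold and 374 to 1733 with a library left out. The room-air genotype effect gave 1, 758 by DESeq2, 0 without lens-rich retinas, 0 without the pair and 0 to 1 with a library left out. The genotype effect after oxygen gave 244, 1002 by DESeq2, 69 without lens-rich retinas, 3 without the pair, 56 at the fold and 12 to 351 with a library left out. The Gsdmd interaction turned to -0.20 under limma voom and ranged from -0.22 to 0.91 with a library left out. That of Edn2 was -1.89 under limma voom and -0.97 without lens-rich retinas, and ranged from -1.87 to 1.11. The causes were not tested, though fits without libraries hold fewer samples, and that without the lens-rich retinas holds 1 WT-RA library, assumed to vary like the other groups. No paired analysis was possible because the labels give the retinas no replicate numbers that groups share. With 3 retinas per group, differences smaller than their spread could not be called.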
